A study of Mus musculus with 12 samples.

Results

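The hypoxia response genes examined here were Hif1a, Epas1, Egln1, Egln3, Vegfa, Bnip3, Ankrd37, Adm, Pdk1 and Slc2a1, 10 genes picked by name. All 10 had a row in both tables of counts, of 50433 rows for renal tubular epithelial cells (TECs) and 50434 rows for neutrophils (PMN). Both tables come from mice with acute kidney injury caused by ischemia-reperfusion injury (IRI), in which the vessels of the kidneys are clamped and then released. The study asked how glutamine acts on injured TECs, and for these genes the comparison asks whether their RNA differed between glutamine and vehicle after IRI.

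All groups came from wildtype mice that had undergone IRI, and cells were collected 24 hours after it. The mice were young adult males of the C57BL/6J strain, glutamine was injected intravenously as the dipeptide N(2)-L-alanyl-L-glutamine, and the vehicle was saline. TECs were sorted from kidney as CD45-negative and Prominin-1-positive cells, giving 3 glutamine libraries (replicates 1, 2 and 3) and 3 vehicle libraries (replicates 3, 4 and 5). PMN came from blood, again with 3 libraries per group. No sham libraries were analysed here, so that the levels below are levels after injury and not a response to it. The labels do not name the animal behind a library, and the p-values measure the spread between these libraries.

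The TEC libraries held between 5397370 and 10223461 counts, the lowest total being that of glutamine replicate 2, and the PMN libraries held between 20225246 and 21878446. In TECs the sort marker Prom1 lay between 64.6 and 83.5 counts per 1000000 counts (CPM) and Ptprc, the gene of CD45, between 0.102 and 2.74 CPM. In PMN, Ptprc lay between 317 and 1150 CPM and the neutrophil gene S100a8 between 6607 and 28925 CPM, while Cd74, an antigen presentation gene of macrophages and B cells, lay between 4154 and 10743 CPM. The 9 macrophage markers, Cd74 among them, summed to 6383 to 14235 CPM with vehicle and 6851 to 19211 CPM with glutamine. The 12 neutrophil markers summed to between 22082 and 73140 CPM. Of the macrophage markers, 8 were higher with glutamine, 1 was lower and 0 passed the test. The part of macrophage RNA in the PMN levels of the members was not tested. Vehicle replicate 2 of the PMN stood apart: its 11 endothelial markers summed to 3292 CPM against 2.76 to 142 CPM in the other PMN libraries, and its 4 podocyte markers summed to 1133 CPM against 0.158 to 8.78 CPM. Where leaving out this library turned a member's direction, the value without it is given. Vehicle replicate 1 of the PMN stood apart in other markers: 9 markers of the thick limb and distal tubule summed to 1220 CPM against 5.14 to 37.9 CPM in the other PMN libraries, and 10 markers of tubular injury to 22960 CPM against 3406 to 3976 CPM. The injury list includes Lcn2, the gene of neutrophil gelatinase-associated lipocalin, so its sum need not come from tubule cells. The 11 proximal tubule markers summed to 428 CPM in this library against 284 to 373 CPM in the others. Without vehicle replicate 1, each of the 9 tested members kept the direction of its PMN difference and none passed the test. The log2 fold changes (glutamine minus vehicle) were then 0.45 for Slc2a1 and -1.24 for Vegfa, against 0.15 and -0.72 with that library. In TECs the endothelial markers summed to between 423 and 723 CPM and none of the 11 was at 0 in any library. The 7 markers of red blood cells and platelets summed to between 809 and 6731 CPM in TECs. Their sum was highest in glutamine replicate 2 and next in vehicle replicate 5 (4421 CPM), and their part in the member levels was not tested. In these bulk libraries, fewer cells of a type and less RNA per cell cannot be told apart.

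Cells sense low oxygen through hypoxia-inducible factors (HIFs). HIF-1α, encoded by Hif1a, and HIF-2α, encoded by Epas1, are made continuously. With oxygen present, the prolyl hydroxylases Egln1 and Egln3 mark them for destruction by the von Hippel-Lindau protein. Without oxygen they escape, pair with the protein of Arnt and bind hypoxia response elements at their target genes. Because this control acts on the proteins, RNA levels of Hif1a and Epas1 do not measure HIF activity, whereas target genes are a readout of it. In the kidney, tubular cells are known chiefly for HIF-1α, and endothelial and interstitial cells for HIF-2α. The other members are known targets. Vegfa and Adm encode secreted vascular factors, Slc2a1 the glucose transporter GLUT1, and Pdk1 a kinase that inhibits pyruvate dehydrogenase. Bnip3 encodes a mitophagy receptor and Ankrd37 an ankyrin repeat protein. Egln1 and Egln3 are HIF targets themselves, which forms a feedback loop.

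To show what the members have in common in their sequence, RefSeq promoter windows of 300 bases (250 before a transcription start and 50 after it, GRCm38.p6) were searched on both strands for the core of the hypoxia response element, ACGTG or GCGTG. Windows were found for 9 of the 10 members, 11 windows in all, and Epas1 had none among those used. Each of the 9 members had a core in at least 1 window, Vegfa only in the window at a start inside the gene. In all, 9 of the 11 windows (81.8%) held one, compared with 43.8% of the 32851 windows of all genes. The Bnip3 window held 5 matches, the Ankrd37 window 4 and the Hif1a window 3. Of all windows, 8.93% held 3 or more. A CACGTG counts on both strands, and neighboring matches can overlap. Both cores hold a CG pair, and the member windows held from 2 (a Pdk1 window without a match) to 60 (Egln1) such pairs. The windows of all genes were not matched for CG pairs, so the comparison does not separate the core from base composition. The stretches below run 5′ to 3′ on the strand of the gene with the core in capitals, and they belong to members whose values are described further on. A core read on the other strand appears as CACGT or CACGC.
Egln1: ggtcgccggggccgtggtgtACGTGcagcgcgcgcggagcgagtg
Vegfa: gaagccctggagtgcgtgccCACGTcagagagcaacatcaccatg
Bnip3: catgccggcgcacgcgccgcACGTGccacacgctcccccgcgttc
Ankrd37: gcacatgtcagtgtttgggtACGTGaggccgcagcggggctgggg
Adm: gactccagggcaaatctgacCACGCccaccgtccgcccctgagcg
Slc2a1: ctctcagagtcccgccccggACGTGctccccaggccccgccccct

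The Egln1 stretch lies at chr8:124949298-124949342 on the minus strand, its core starting at base -68 from the transcription start. The Bnip3 stretch lies at chr7:138909589-138909633 on the minus strand (base -107), and the Ankrd37 stretch at chr8:45999832-45999876 on the minus strand (base -6). The Adm stretch is at chr7:110627583-110627627 on the plus strand (base -54), and that of Slc2a1 at chr4:119108689-119108733 on the plus strand (base -36). The Vegfa stretch, at chr17:46025350-46025394 on the minus strand (base -211), belongs to a start inside the gene, whereas the window at the upstream end of Vegfa held no match. The Ankrd37 stretch too lies inside its annotated gene, which spans 45996902 to 46005707 on chromosome 8. So does the Hif1a window, at chr12:73907617-73907916, in a gene that spans 73901375 to 73947530. A match is a run of letters and does not show binding.

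In TECs, none of the hypoxia response genes passed the test between glutamine and vehicle. Of the 10 members, 9 passed the expression filter and were tested, and 0 passed a Benjamini-Hochberg adjusted p-value of 0.05 with edgeR, whose quasi-likelihood fit gave all adjusted p-values below unless another tool is named. Among the 14734 tested genes, 0 (0%) passed, with a smallest adjusted p-value of 0.0955. DESeq2's Wald test called 246 of 12738 genes (1.93%) and 0 members. Before adjustment, 1 member was lower at p below 0.05 (Egln1) and 0 were higher, where 5.58% of all tested genes were lower and 7.32% higher. The levels of the 2 groups did not overlap for Egln1, which was lower with glutamine, and for Vegfa, which was higher. Of all tested genes, 9.81% were lower without overlap and 9.01% higher without overlap, so that 1 of 9 members in each direction lay close to the background. The log2 fold changes of the members ran from -0.56 to 0.52, with 5 below and 4 above 0 and a median of -0.05, beside a median of 0.01 over all tested genes.

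**Figure D1:**
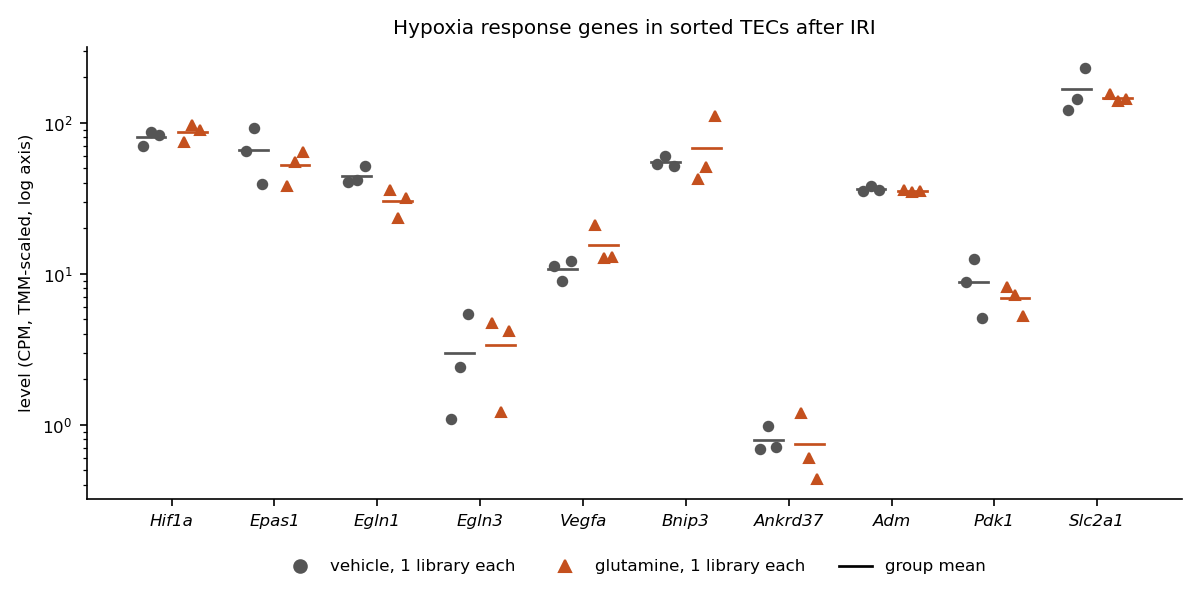
Level of each hypoxia response gene in the 6 TEC libraries, in TMM-scaled CPM on a log axis; circles are vehicle libraries, triangles glutamine libraries and lines the group means. The circles and triangles separate for Egln1 and Vegfa, and the 6 libraries of Adm lie between 34.7 and 38.2 CPM.

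Among the sensors, Egln1 (chromosome 8, 124908587 to 124949324, minus strand, GRCm38), the main oxygen-sensing hydroxylase of HIF, had 40.3, 41.8 and 52.0 CPM in vehicle replicates 3, 4 and 5. With glutamine it had 35.8, 23.3 and 31.8 CPM in replicates 1, 2 and 3. Every glutamine library lay below every vehicle library, and the lowest was the shallow replicate 2, which held 116 counts of the gene. The means ± SD (n = 3) were 44.7 ± 6.32 CPM for vehicle and 30.3 ± 6.38 CPM for glutamine. This gave a log2 fold change of -0.56 (standard error 0.24, 95% interval -1.09 to -0.02) with an unadjusted p of 0.0418 and an edgeR adjusted p of 0.37. Without any 1 library, it stayed between -0.69 and -0.41, the value nearest 0 being that without glutamine replicate 2.

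Egln3, a hydroxylase that is itself strongly inducible by hypoxia in many cells, was scarce and scattered in TECs. It had 1.09, 2.42 and 5.40 CPM in the vehicle libraries and 4.68, 1.21 and 4.17 CPM in the glutamine libraries, from 6 to 53 counts. High and low libraries occurred in both groups, and the log2 fold change of 0.20 had a 95% interval of -1.37 to 1.77. It became -0.20 without vehicle replicate 3 and -0.11 without glutamine replicate 1.

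Hif1a (chromosome 12, 73901375 to 73947530, plus strand) was the steadier of the HIF α genes in TECs. Its levels were 70.3, 87.2 and 82.9 CPM with vehicle and 74.6, 96.8 and 90 CPM with glutamine, and the groups overlapped. Its log2 fold change was 0.12 (standard error 0.20, 95% interval -0.33 to 0.56, edgeR adjusted p = 0.835). When single libraries were left out, it lay between 0.03 and 0.22. The annotation places exons of Gm49321 on the same strand and of Gm15283 on the opposite strand over exons of Hif1a, so that reads from these genes may not be told apart.

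Epas1 (chromosome 17, 86753700 to 86833410, plus strand) varied more. It had 65.4, 92.0 and 39.0 CPM with vehicle and 38.0, 55.2 and 64.0 CPM with glutamine. Both groups held a low library, and the log2 fold change of -0.32 (standard error 0.31, 95% interval -1.01 to 0.37) became 0.00 without vehicle replicate 4, the library with the highest level. The summed endothelial markers were also highest in vehicle replicate 4 (723 CPM) and lowest in vehicle replicate 5 and glutamine replicate 1 (423 and 428 CPM), the libraries in which Epas1 was lowest. The part of endothelial RNA in the Epas1 level was not tested. Per kilobase of exon, Hif1a exceeded Epas1 in 5 of the 6 libraries: the ratio of Hif1a to Epas1 was 1.02, 0.899 and 2.02 with vehicle and 1.86, 1.66 and 1.33 with glutamine. With the length of the longest transcript in place of all exons, the ratio lay between 1.11 and 2.48. The vehicle libraries spanned the range of the glutamine libraries.

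Among the secreted factors, Vegfa (chromosome 17, 46016993 to 46032369, minus strand), the principal growth factor of blood vessels, had 11.2, 8.96 and 12.2 CPM with vehicle and 20.9, 12.7 and 12.9 CPM with glutamine. All glutamine libraries were higher, but replicates 2 and 3 were higher than the highest vehicle library by under 1 CPM, and replicate 1 held most of the difference. The means were 10.8 ± 1.68 CPM and 15.5 ± 4.68 CPM (SD, n = 3), and the log2 fold change was 0.52 (standard error 0.32, 95% interval -0.19 to 1.24, edgeR adjusted p = 0.519). Without glutamine replicate 1 it was 0.24. The podocyte markers, from cells known for high Vegfa, summed to 107 CPM in glutamine replicate 1 and to between 76.5 and 129 CPM over all TEC libraries. The part of podocyte RNA in the Vegfa level was not tested.

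Adm (chromosome 7, 110627661 to 110629820, plus strand), the gene of the vasodilator adrenomedullin, was even across the TECs. It had 35.5, 38.2 and 36.0 CPM with vehicle and 36.0, 34.7 and 35.2 CPM with glutamine, from 173 to 427 counts. The highest library exceeded the lowest by a factor of 1.10, compared with a median factor of 2.38 over all tested genes, and 3 of the 14734 genes, Adm among them, had a factor as low. Scaled by library totals alone, the factor was 1.3, and 265 genes were at or below theirs. The log2 fold change was -0.05 with a 95% interval of -0.51 to 0.41. Changes within that interval remain possible, and the interval is not a limit of detection.

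Among the metabolic targets, Slc2a1 (chromosome 4, 119108711 to 119137983, plus strand), the glucose transporter that serves most cells, had 122, 144 and 232 CPM with vehicle and 154, 139 and 143 CPM with glutamine. The glutamine libraries were close together, and 1 vehicle library, replicate 5, lay above all others. The log2 fold change of -0.19 (standard error 0.24, 95% interval -0.72 to 0.34) turned to 0.13 without that library. Pdk1, whose kinase inhibits pyruvate dehydrogenase, had 8.78, 12.6 and 5.09 CPM with vehicle and 8.17, 7.23 and 5.26 CPM with glutamine. Its groups overlapped, and the log2 fold change was -0.36 with a 95% interval of -1.29 to 0.57. It was -0.02 without vehicle replicate 4 and -0.64 without vehicle replicate 5.

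Bnip3 (chromosome 7, 138890836 to 138909519, minus strand), which marks mitochondria for removal, had 52.9, 59.8 and 51.6 CPM with vehicle and 42.3, 50.6 and 110 CPM with glutamine. Glutamine replicates 1 and 2 lay below every vehicle library, whereas replicate 3 was about double them. The log2 fold change was 0.31 (standard error 0.33, 95% interval -0.41 to 1.03) and became -0.24 without glutamine replicate 3. That library also had the highest summed level of proximal tubule markers, 16960 CPM against 8981 to 14128 CPM in the others, and the part of this in the Bnip3 level was not tested. Ankrd37 was near the limit of detection in TECs with 7, 11 and 7 counts with vehicle and 10, 3 and 4 counts with glutamine, did not pass the expression filter and was not tested. Its exons share bases with Lrp2bp and Ufsp2 on the opposite strand, and those of Bnip3 and Slc2a1 share bases with predicted genes on the opposite strand.

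**Figure D2:**
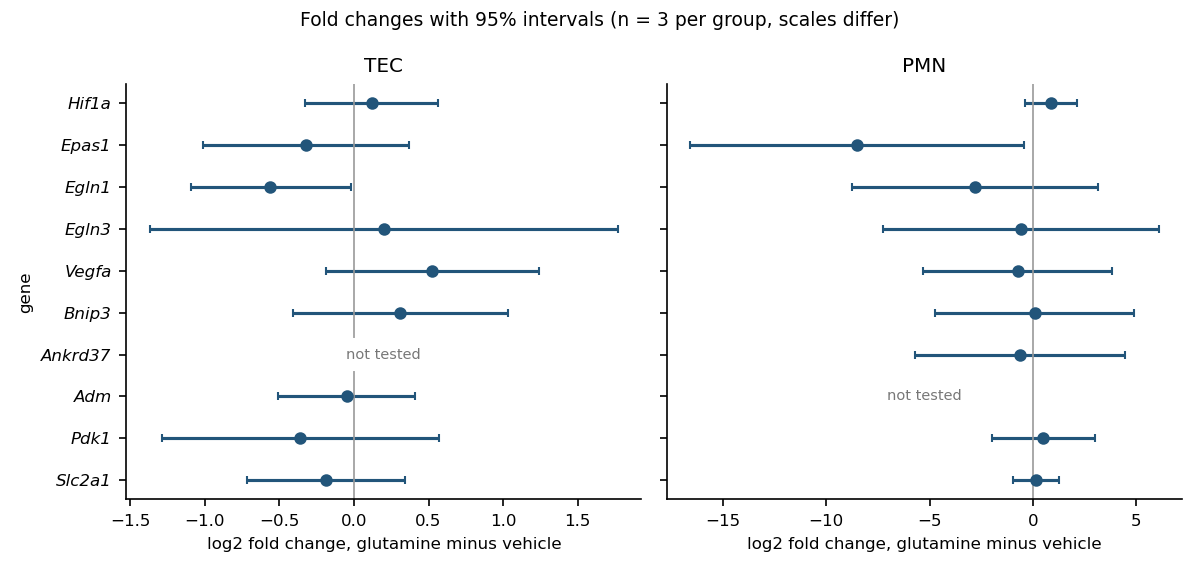
Log2 fold change of each hypoxia response gene, glutamine minus vehicle, with 95% intervals from edgeR in TECs (left) and PMN (right), on different scales. In TECs the interval of Egln1 (-1.09 to -0.02) ends just below 0 and the others include 0. In PMN the interval of Epas1 (-16.60 to -0.41) ends below 0, and its fold change turns positive without vehicle replicate 2. The other PMN intervals include 0 and reach up to 6.10.

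Per kilobase of exon, the order of the members in TECs by median over the 6 libraries was Slc2a1 (40.9 CPM per kilobase), Bnip3 (23.1), Adm (22.1), Hif1a (14.4), Epas1 (10.7), Egln1 (10.6), Vegfa (2.90), Egln3 (1.24), Pdk1 (0.990) and Ankrd37 (0.456). The ranges of neighbors over the libraries were apart for Adm and Hif1a (21.5 to 23.6 against 11.9 to 16.4 CPM per kilobase), for Egln1 and Vegfa (6.48 to 14.5 against 2.09 to 4.88) and, narrowly, for Vegfa and Egln3 (2.09 to 4.88 against 0.408 to 2.03). All other neighbors overlapped. The glucose transporter, the mitophagy receptor and adrenomedullin thus stood above both HIF α genes, and Egln1 stood above Egln3. With the length of the longest transcript, Egln3 and Pdk1 changed places (1.24 and 1.48) and the rest of the order stayed. The order assumes reads spread evenly over the exons, and the tables do not show where in a transcript the reads fell.

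The wider pathway around the members was described through 6 gene lists, and no gene of these lists passed edgeR's test in TECs in either direction. Of the 19 oxygen sensing genes, 16 were tested, 11 lower and 5 higher, with a median log2 fold change of -0.07 beside 0.01 for all tested genes. Arnt, the partner of both HIF α proteins, had 22.4, 53.3 and 25.3 CPM with vehicle and 23.5, 25.9 and 50.7 CPM with glutamine, so that each group held 1 high library. Vhl, the gene of the von Hippel-Lindau protein, lay between 14.5 and 24.5 CPM (log2 fold change -0.07, 95% interval -0.72 to 0.58). Hif1an, an asparaginyl hydroxylase that blocks HIF activity, lay between 45.9 and 69.3 CPM (0.05, 95% interval -0.44 to 0.55). An unadjusted p below 0.05 was found for Rbx1, a subunit of the ubiquitin ligase that VHL directs, and for Crebbp, a coactivator of HIF. Rbx1 had a log2 fold change of -0.67 (edgeR adjusted p = 0.281) and Crebbp of 0.54 (edgeR adjusted p = 0.344). The groups did not overlap for 2 genes that were lower with glutamine, Rbx1 and Elob, and for 1 that was higher, Ep300, of 16 tested, close to the 9.81% lower and 9.01% higher of all tested genes.

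Of the 17 glycolysis genes known as HIF targets, 16 were tested, 6 lower and 10 higher, with a median log2 fold change of 0.28. Both abundant enzymes named by the rule lay below that median. Ldha, which turns pyruvate into lactate, had 367, 346 and 357 CPM with vehicle and 256, 286 and 367 CPM with glutamine (log2 fold change -0.23, 95% interval -0.65 to 0.18). Aldoa lay between 382 and 475 CPM (-0.03, 95% interval -0.41 to 0.34). The aldolase gene Aldoc had 2.56, 3.40 and 2.14 CPM with vehicle and 4.44, 8.24 and 8.66 CPM with glutamine, and the hexokinase gene Hk1 had 109, 84.9 and 99.1 CPM with vehicle and 133, 181 and 113 CPM with glutamine. Both were higher in every glutamine library, with log2 fold changes of 1.39 and 0.54 and edgeR adjusted p-values of 0.278 and 0.35. The value of Hk1 was 0.33 without glutamine replicate 2. Pgam1, a phosphoglycerate mutase, was lower in every glutamine library (-0.15, 95% interval -0.52 to 0.22). Groups without overlap were thus seen for 1 lower and 2 higher genes of 16, beside 9.81% lower and 9.01% higher of all tested genes.

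Of the 31 other HIF targets, 30 were tested, 11 lower and 19 higher, with a median of 0.09. Car9, a carbonic anhydrase and a classical hypoxia marker, had 0.197, 0.537 and 0.815 CPM with vehicle and 1.80, 1.41 and 1.43 CPM with glutamine (log2 fold change 1.56, 95% interval -0.42 to 3.54). Ddit4, an inhibitor of mTOR signaling, lay between 90.5 and 165 CPM (0.20, 95% interval -0.31 to 0.71), and P4ha1, a collagen prolyl hydroxylase, between 13.3 and 18.4 CPM (-0.03, 95% interval -0.65 to 0.59). Rora, a nuclear receptor, had 71.0, 115 and 127 CPM with vehicle and 165, 213 and 245 CPM with glutamine. Its groups were apart, with a log2 fold change of 1.0 (standard error 0.25, edgeR adjusted p = 0.205). Bhlhe40, a transcriptional repressor, was also higher in every glutamine library, with a log2 fold change of 0.59 and an edgeR adjusted p of 0.289. In all, 4 of the 30 genes were higher without overlap (Rora, Bhlhe40, Car9 and Pfkfb2) and 2 were lower, Fam162a (-0.55, 95% interval -1.14 to 0.04) and Wsb1 (-0.24, 95% interval -0.73 to 0.24), close to the shares of all tested genes (9.01% higher and 9.81% lower).

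The list around pyruvate dehydrogenase and glucose transport held the smallest adjusted p-value of the lists, that of Pdk2. Pdk2, a relative of Pdk1 that inhibits the same enzyme and is not known as a general HIF target, had 43.3, 46.8 and 58.8 CPM with vehicle and 88.4, 106 and 98.0 CPM with glutamine. Every glutamine library lay above every vehicle library. Pdk2 had a log2 fold change of 0.97 (standard error 0.21, 95% interval 0.51 to 1.43, edgeR adjusted p = 0.163), and that of Pdk1 was -0.36. DESeq2's Wald test gave Pdk2 an adjusted p of 0.00829 and Rora one of 0.0196, the range over 12 alternatives being 0.00829 to 0.504 for Pdk2 and 0.00436 to 0.504 for Rora. Pdk4, the starvation-induced relative, lay between 67.7 and 177 CPM with overlapping groups (0.05, 95% interval -0.64 to 0.75), and Slc2a2, the basolateral glucose transporter of the proximal tubule, between 10.4 and 22.9 CPM (0.17, 95% interval -0.64 to 0.98). Dlat, a subunit of pyruvate dehydrogenase, and Slc5a2, a luminal glucose transporter and also a proximal tubule marker, had unadjusted p-values below 0.05 with log2 fold changes of -0.50 and 2.06 and edgeR adjusted p-values of 0.381 and 0.251. The value of Slc5a2 was 1.16 without glutamine replicate 2 and 2.48 without glutamine replicate 1. Beside these levels, most markers of tubule segments had positive fold changes: 8 of 11 proximal tubule markers, Slc5a2 among them, lay above 0 with a median log2 fold change of 0.54, and 9 of 9 markers of the thick limb and distal tubule did so with a median of 0.32. An unadjusted p below 0.05 in this direction was found for 5 and 4 of them, where 7.32% of all tested genes had one, and 0 passed after adjustment. Summed, the proximal tubule markers lay between 11783 and 14128 CPM with vehicle and between 8981 and 16960 CPM with glutamine. Those of the thick limb and distal tubule lay between 1198 and 2349 CPM with vehicle and between 1575 and 2613 CPM with glutamine. Both sums thus overlapped between the groups. The part of these markers in the levels of Pdk2, Rora and Slc5a2 was not tested. In all, 12 of the 14 genes were tested, 6 lower and 6 higher, with a median of 0.02. At an unadjusted p below 0.05, 1 was lower and 2 were higher, beside 5.58% lower and 7.32% higher of all tested genes. Groups without overlap were seen for 1 lower and 2 higher genes, beside 9.81% lower and 9.01% higher of all tested genes.

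Of the 13 ligands and receptors around Vegfa and Adm, 10 were tested, 6 lower and 4 higher, with a median of -0.20 and none with an unadjusted p below 0.05. The VEGF receptor genes Kdr and Flt1, which endothelial cells express, had log2 fold changes of -0.07 (95% interval -0.65 to 0.51) and -0.32 (95% interval -1.03 to 0.38), and Calcrl, the receptor of adrenomedullin, had -0.64 (95% interval -1.66 to 0.38). Of the 11 endothelial markers, 9 were also lower, with a median of -0.21 and 0 past the test, and their part in these levels was not tested. Of the 14 mitophagy genes, 13 were tested, 9 lower and 4 higher, with a median of -0.06. Bnip3l, the closest relative of Bnip3, lay between 64.5 and 90.4 CPM (-0.24, 95% interval -0.67 to 0.20), and Pink1, a kinase of damaged mitochondria, between 95.6 and 153 CPM (-0.05, 95% interval -0.53 to 0.43). Atg5, needed for autophagosomes, and Gabarapl1, a protein of their membrane, had unadjusted p-values below 0.05 with log2 fold changes of -0.85 and 0.50 and edgeR adjusted p-values of 0.254 and 0.294. At that unadjusted p, 1 of the 13 was lower and 1 higher, beside 5.58% lower and 7.32% higher of all tested genes. Groups without overlap were seen for 1 lower and 1 higher gene, beside 9.81% lower and 9.01% higher of all tested genes. Bnip3l stands in 2 of the lists, as does Slc2a3.

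**Figure D3:**
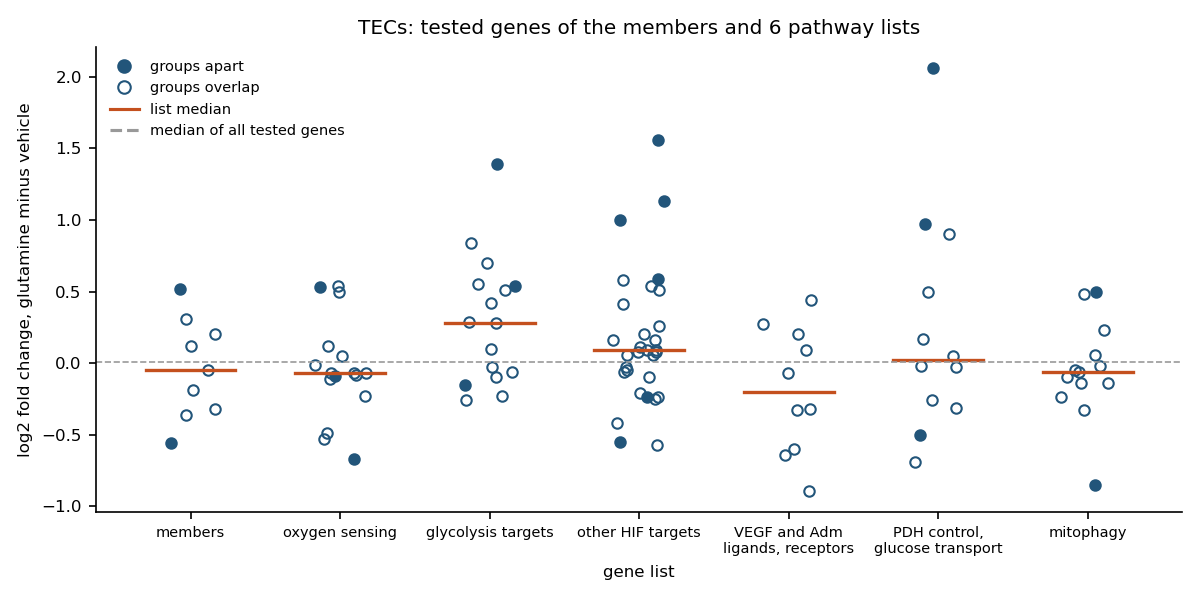
Log2 fold change in TECs of each tested member and each tested gene of the 6 pathway lists; filled points are genes whose glutamine and vehicle libraries do not overlap, bars are list medians and the dashed line is the median of all tested genes (0.01). The medians run from -0.20 for the ligands and receptors to 0.28 for the glycolysis targets.

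In PMN, the members again did not pass the test, and most of them varied widely within each group. Of the 10 members, 9 were tested, and 0 passed an edgeR adjusted p-value of 0.05. Among the 10130 tested genes, 0 (0%) passed, and the smallest adjusted p-value was 0.828. DESeq2's Wald test called 309 of 11035 genes (2.80%) and 0 members, and it gave Epas1 no adjusted p (log2 fold change -8.61, standard error 2.48). Before adjustment, 1 member was lower at p below 0.05 (Epas1) and 0 were higher, where 1.28% of all genes were lower and 2.04% higher. No tested member had groups without overlap, compared with 10.5% of all tested genes in either direction. The log2 fold changes ran from -8.50 to 0.88, 5 below and 4 above 0, and the median standard error of the members was 2.01, compared with 1.51 over all tested genes in PMN and 0.36 in TECs.

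**Figure D4:**
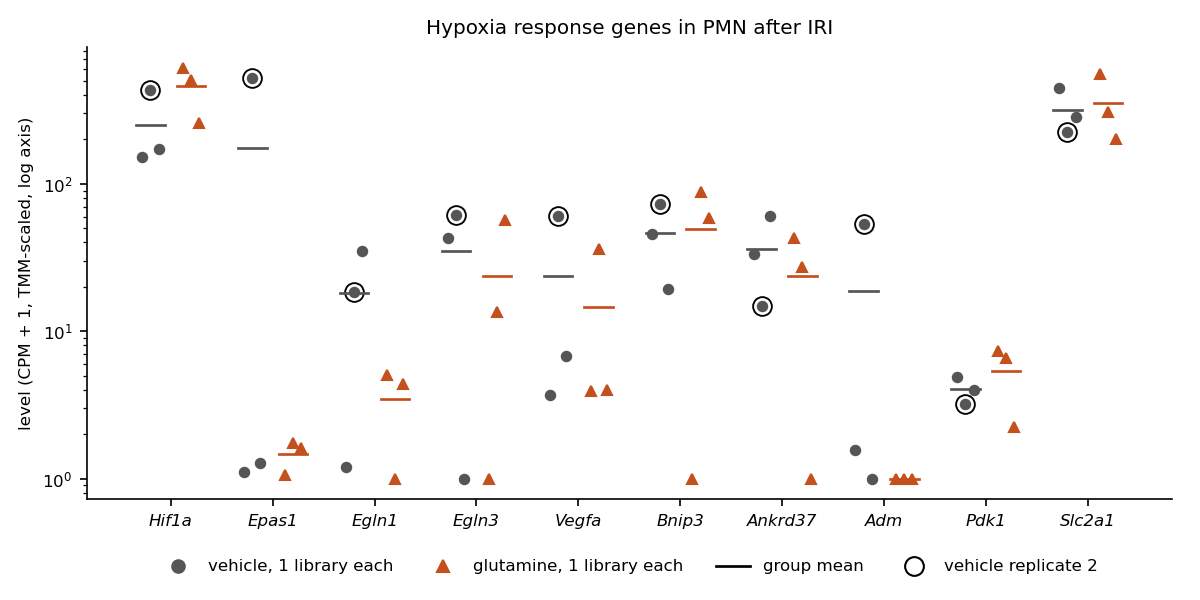
Level of each hypoxia response gene in the 6 PMN libraries, in TMM-scaled CPM plus 1 on a log axis; circles are vehicle libraries, triangles glutamine libraries, lines the group means and rings vehicle replicate 2. Epas1 (519 CPM) and Adm (52.3 CPM) are high in the ringed library, and Egln1, Egln3, Bnip3 and Ankrd37 fall to 0 in single libraries.

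The scatter in PMN took the form of zeros beside high counts. Egln1, Egln3, Bnip3 and Ankrd37 each had 0 counts in at least 1 library and at least 100 in another. That held for 30.5% of all tested genes in PMN and for 0.224% in TECs, where no member did so. Egln1 had 0.2, 17.5 and 34.2 CPM with vehicle and 4.05, 0 and 3.41 CPM with glutamine, and Egln3 had 42.1, 60.0 and 0 CPM with vehicle and 0, 12.4 and 55.9 CPM with glutamine. A count of 0 in these libraries allows up to 0.158 CPM (3 counts, counting error only), far below the other libraries of the same group. The intervals were accordingly wide: the log2 fold change of Egln1 was -2.79 with a 95% interval of -8.77 to 3.18, and that of Egln3 was -0.58 with an interval of -7.25 to 6.10 and became 0.11 without vehicle replicate 2.

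Hif1a, which supports glycolysis and survival of neutrophils at inflamed sites, was read in every PMN library. It had 151, 430 and 170 CPM with vehicle and 614, 502 and 259 CPM with glutamine. Glutamine replicates 1 and 2 were the highest libraries, but vehicle replicate 2 lay above glutamine replicate 3, so that the groups overlapped. Hif1a had a log2 fold change of 0.88 (standard error 0.53, 95% interval -0.39 to 2.14, edgeR adjusted p = 1). Without vehicle replicate 2 it was 1.51 with an edgeR adjusted p of 0.916, and without other single libraries it lay between 0.60 and 1.15.

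Epas1 was read almost entirely in 1 PMN library. Its levels were 0.1, 519 and 0.285 CPM with vehicle and 0.0527, 0.754 and 0.602 CPM with glutamine, from 11380 counts in vehicle replicate 2 and 1 to 16 counts in the other libraries. Vehicle replicate 2 held 99.7% of the summed level, and 1.16% of all tested genes had over 90% in 1 library. The log2 fold change of -8.50 (unadjusted p = 0.0421, edgeR adjusted p = 1) became 1.25 without that library. Adm did the same, with 0.551, 52.3 and 0 CPM with vehicle and 0 in all glutamine libraries, and it did not pass the expression filter. In vehicle replicate 2 the endothelial receptor Kdr had 619 CPM and Podxl, a gene of podocytes and endothelial cells, had 812 CPM, whereas in the other PMN libraries Kdr was at 0 and Podxl was at or below 7.78 CPM. Per kilobase of exon, the ratio of Hif1a to Epas1 was 0.785 in vehicle replicate 2, while in the other PMN libraries Epas1 was at most 0.135 and Hif1a at least 25.5 CPM per kilobase. The part of endothelial and podocyte RNA in these levels was not tested.

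**Figure D5:**
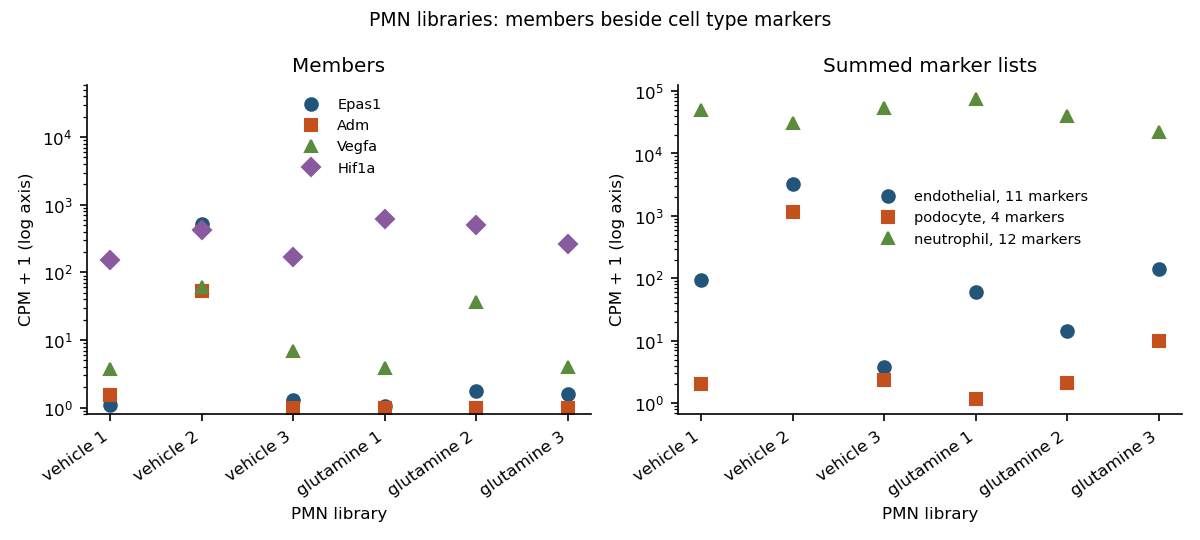
Levels of Epas1, Adm, Vegfa and Hif1a (left) and summed levels of endothelial, podocyte and neutrophil markers (right) in each PMN library, in CPM plus 1 on log axes. Epas1, Adm, Vegfa, the endothelial sum (3292 CPM) and the podocyte sum (1133 CPM) are highest in vehicle replicate 2, whereas the neutrophil sum lies between 22082 and 73140 CPM in all libraries.

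Vegfa in PMN was also highest in vehicle replicate 2. It had 2.71, 59.5 and 5.80 CPM with vehicle and 2.90, 35.2 and 3.01 CPM with glutamine, so that each group held 1 high library. Endothelial and podocyte sums were 13.2 and 1.13 CPM in glutamine replicate 2, the other high library, and their part in the Vegfa level was not tested. The difference on the log2 scale was -0.72 (95% interval -5.31 to 3.86) and became 1.67 without vehicle replicate 2 and -2.98 without glutamine replicate 2.

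Of the metabolic targets in PMN, Slc2a1 had 443, 224 and 283 CPM with vehicle. With glutamine it had 305 and 199 CPM in replicates 2 and 3 and was highest in replicate 1 (mean 352 ± 181 CPM, SD, n = 3). The groups overlapped, with a log2 fold change of 0.15 (standard error 0.46, 95% interval -0.95 to 1.25) that became -0.06 without vehicle replicate 2. It was the most even of the members in PMN, the highest library exceeding the lowest by a factor of 2.77, and per kilobase it was the most abundant, with a median of 83.9 CPM per kilobase against 58.4 for Hif1a. Their ranges overlapped. Pdk1 lay between 1.25 and 6.32 CPM (0.52, 95% interval -1.99 to 3.04), a difference that was 0.15 without glutamine replicate 1 and 0.96 without glutamine replicate 3. Bnip3 had 45.0, 72 and 18.3 CPM with vehicle and 0, 86.6 and 57.7 CPM with glutamine, and Ankrd37 had 32.2, 13.8 and 59.5 CPM with vehicle and 42.1, 26.2 and 0 CPM with glutamine. Both were high in 5 libraries and at 0 in a single glutamine library, with 95% intervals of -4.72 to 4.90 and -5.71 to 4.46. Ankrd37, at no more than 11 counts in any TEC library, thus had at least 302 counts in 5 of the 6 PMN libraries. The tables of the cell types were made separately, and this was not tested.

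In the wider lists no gene passed the test in PMN. Of the glycolysis targets, 15 were tested, 7 lower and 8 higher, with a median log2 fold change of 0.14 beside 0.00 for all tested genes. Their median standard error, 0.39, was far below that of the members, 2.01. Of the 15, 1 was higher at an unadjusted p below 0.05, beside 2.04% of all tested genes. The groups were apart for 1 of the 15, beside 10.5% of all tested genes in either direction. Pfkfb4, an enzyme that drives glycolysis and a known HIF target, had 71.1, 50.7 and 73.5 CPM with vehicle and 126, 115 and 222 CPM with glutamine, higher in every glutamine library, with a log2 fold change of 1.25 (standard error 0.49, unadjusted p = 0.0378, edgeR adjusted p = 1). The PMN groups were also apart in the summed level of 6 lymphocyte markers. It was 0.802 to 6.11 CPM with vehicle and 25.4 to 33.5 CPM with glutamine, with 3 or 4 of the 6 at 0 in each library. Of the 6 markers, 2 were tested, with log2 fold changes of 0.62 and 11.98, and the groups were apart for 1 of them. The part of lymphocyte RNA in the PMN levels was not tested. Ldha lay between 627 and 1172 CPM with overlapping groups (-0.02, 95% interval -0.73 to 0.69). Oxygen sensing genes had 12 tested, 8 lower and 4 higher (median -0.08), the other HIF targets 22, 13 lower and 9 higher (median -0.19), and mitophagy genes 13, 8 lower and 5 higher (median -0.26). Of the ligands and receptors and of the list around pyruvate dehydrogenase, 4 genes each were tested, with medians of 0.30 and 0.29. Outside the glycolysis targets, groups without overlap were seen for 1 lower and 1 higher of the other HIF targets and for 1 higher mitophagy gene. No gene of these other lists had an unadjusted p below 0.05.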

How the data were processed

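RNA was measured in 6 TEC and 6 PMN libraries, sequenced, per the labels, as single-end reads of 50 bases from poly(A)-primed cDNA. Per the submitters' processing notes, the authors used Trim Galore 0.6.4 and Salmon 1.0.0 with genome build mm10. The annotation is not given in the sources used here. Both tables hold deposited estimated counts, 1 row per gene symbol, which the authors had not normalized. The deposited PMN values had been resaved by a spreadsheet program: 3.2% of the cells carried extra points and 0.391% had become dates. They were decoded, with the last point read as the decimal point, and then used as estimated counts. Unlike in the plan, they could not be taken as plain counts. Each PMN library had 2 columns although the labels state single-end reads, and what the 2 columns are is not stated. The 2 columns of a PMN library (r = 0.998 against 0.699 to 0.773 between libraries) were averaged as 1 replicate.

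Counts were rounded and tested per cell type with edgeR 4.0.16 in R 4.3.3 (robust quasi-likelihood fit, TMM normalization, default expression filter, Benjamini-Hochberg adjusted p below 0.05). The tests were checked on simulated data. DESeq2 1.42.0, limma 3.58.1, other normalizations, filters, a threshold of 0.1, single PMN columns and fits without each replicate were alternatives. With 3 libraries against 3, an exact permutation test cannot go below 0.1, and none was used. Positions and lengths came from GENCODE M21 on GRCm38, promoters from RefSeq. The text names all 10 members, those of the first 3 genes of each list that were analysed, list genes past the threshold and the sort markers. Other list genes, named for an unadjusted p below 0.05 or for groups without overlap, were chosen after their values were seen. The members and lists were chosen with earlier results of these data known. Genes of the lists without a row in the tables were not analysed here. Of the marker genes, 1 was left out of its list and is not reported here.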

Additional observations from a re-analysis of the deposited data

How the results depend on the processing

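No member passed the threshold in TECs or PMN under any of the alternatives that gave an adjusted p for it, and DESeq2 gave none for Epas1 in PMN. The count over all TEC genes moved from 0 to 398 without the expression filter, to 246 with DESeq2 and to 12 at an adjusted p below 0.1, and it ranged from 0 to 38 without single libraries (38 without glutamine replicate 2 and 4 without vehicle replicate 5). In PMN it moved from 0 to 309 with DESeq2 and stayed at 0 without any single library. Without the filter or with DESeq2, Pdk2 and Rora passed in TECs. The cause of these differences was not tested.

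Directions of members turned when single libraries were left out: in TECs the log2 fold changes then ranged from -0.59 to 0.00 for Epas1, from -0.20 to 0.95 for Egln3, from -0.24 to 0.56 for Bnip3 and from -0.37 to 0.13 for Slc2a1. In PMN they ranged from -9.10 to 1.25 for Epas1, from -2.43 to 0.11 for Egln3, from -2.98 to 1.67 for Vegfa, from -0.71 to 0.68 for Bnip3 and from -0.35 to 0.45 for Slc2a1. Those of Egln1 and Ankrd37 in PMN, which did not turn, ranged from -3.42 to -1.83 and from -1.45 to -0.02. With limma-voom, Bnip3 in PMN was -2.90, Epas1 -3.04 and Ankrd37 -3.28, and in TECs Arnt was 0.04 and Pdk4 -0.04; with RLE normalization Arnt was 0.00. Among the pathway genes named for TECs, whose alternatives were added after seeing the data, the ranges crossing 0 when single libraries were left out were -0.45 to 0.49 for Arnt, -0.28 to 0.10 for Vhl, -0.09 to 0.20 for Hif1an, -0.12 to 0.03 for Aldoa, -0.26 to 0.20 for Kdr, -0.64 to 0.01 for Flt1, -0.45 to 0.31 for Pdk4, -0.08 to 0.47 for Slc2a2, -0.26 to 0.10 for Pink1, -0.02 to 0.40 for Ddit4 and -0.12 to 0.12 for P4ha1. Egln1 in both cell types, Hif1a, Vegfa, Adm and Pdk1 in TECs, and Hif1a, Ankrd37 and Pdk1 in PMN kept their direction under every alternative that gave them a value; the filter of at least 10 counts in every library gave none for Egln1 and Ankrd37 in PMN. No paired analysis was possible because only the number 3 occurs in both groups of TECs and the PMN numbers are in accession order.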
